A study of Mus musculus with 6 samples.

Results

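The genes described here are 10 members of the epidermal growth factor (EGF) system, matched by mouse gene symbol to the Ensembl identifiers of the deposited tables, out of 41388 genes listed there. They are 6 ligand genes (Hbegf, Areg, Ereg, Tgfa, Btc and Epgn), 3 receptor genes (Egfr, Erbb2 and Erbb3) and Errfi1, which encodes a receptor inhibitor. All 10 were found in the tables, and 9 passed the filter on low counts. Epgn did not. RNA-seq gene counts were deposited for KP2 cells, a low-passage line of C57BL/6J strain derived from a pancreatic tumour of the KPC mouse, an engineered model of the disease. All cells were cultured in DMEM with serum, and the labels name no added stimulus. There were 3 groups of 2 libraries: wild-type cells, cells infected with lentiviral CRISPR vectors against IRAK4 (KO), and KO cells with rescue. The labels do not say whether the KO is a clone or a pool, what the rescue construct is, whether the wild-type cells carry a vector, or whether replicates were separate cultures, so the p-values describe the variation among the libraries at hand, which may be technical. IRAK4 is the kinase that relays Toll-like and interleukin-1 receptor signals.

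EGF family ligands are made as membrane-anchored precursors and are cut free by ADAM proteases, ADAM17 above all. They bind EGFR or ERBB4, which then pair with each other or with ERBB2, a receptor with no known ligand of its own, or with ERBB3, whose kinase is weak and whose ligands are neuregulins. The pairs drive the RAS-ERK and PI3K routes, and ERRFI1 (MIG6) binds the EGFR kinase domain and blocks it. In the pancreas EGFR is known for its part in the early steps of tumour formation.

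RefSeq start sites were listed for 7 of the 10 genes, and 4 are shown because these genes were called lower in the KO and differ in what lies upstream. Each line gives the 250 bases before the start site on the coding strand, 5′ to 3′, in build GRCm38.p6. Capitals mark matches on either strand to the cyclic AMP response element TGACGTCA, the GC box GGGCGG and the TATA box TATAAA. The AP-1 motif TGANTCA and an NF-kB motif were searched as well and had no match in the windows of any of the 7 genes. The Areg window is chr5:91139349-91139598 (+), that of Errfi1 is chr4:150854820-150855069 (+), the downstream of its 2 listed starts and within an intron of the longer transcript, that of Tgfa is chr6:86194972-86195221 (+), and that of Egfr is chr11:16751953-16752202 (+).
Areg: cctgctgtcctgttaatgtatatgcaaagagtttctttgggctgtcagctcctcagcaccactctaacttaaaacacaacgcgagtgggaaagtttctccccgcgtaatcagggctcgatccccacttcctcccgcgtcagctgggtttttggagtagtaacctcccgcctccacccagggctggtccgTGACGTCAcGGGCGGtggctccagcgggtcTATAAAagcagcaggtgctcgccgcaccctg
Errfi1: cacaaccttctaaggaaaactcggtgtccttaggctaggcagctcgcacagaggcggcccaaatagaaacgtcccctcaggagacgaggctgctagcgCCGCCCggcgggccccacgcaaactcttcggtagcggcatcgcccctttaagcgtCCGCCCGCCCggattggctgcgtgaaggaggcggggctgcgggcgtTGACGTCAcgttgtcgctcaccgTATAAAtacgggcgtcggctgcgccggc
Tgfa: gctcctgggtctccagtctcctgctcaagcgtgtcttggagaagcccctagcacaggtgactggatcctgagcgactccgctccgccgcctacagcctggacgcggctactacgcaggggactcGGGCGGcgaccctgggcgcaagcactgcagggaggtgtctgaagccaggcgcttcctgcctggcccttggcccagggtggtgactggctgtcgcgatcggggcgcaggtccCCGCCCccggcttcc
Egfr: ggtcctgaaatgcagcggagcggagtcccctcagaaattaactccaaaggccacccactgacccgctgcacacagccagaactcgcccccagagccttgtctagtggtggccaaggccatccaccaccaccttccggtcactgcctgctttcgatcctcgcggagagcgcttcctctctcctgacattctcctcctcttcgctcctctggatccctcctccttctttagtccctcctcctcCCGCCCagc
Areg and Errfi1 each hold 1 cyclic AMP response element, 61 and 51 bases before the start, and 1 TATA box, 31 and 28 bases before it. Of 32851 promoter windows of the same length, 1.55% hold the first motif and 12.4% the second. The Errfi1 window has 3 GC boxes, that of Tgfa 2 and those of Areg and Egfr 1 each, against 32.7% of all windows with at least 1. The window of the other Errfi1 start and those of Btc and Erbb2 held none of the 5 motifs. The AP-1 and NF-kB motifs were each searched in 1 form, which matched only 6.75% and 1.41% of all windows. Most windows therefore lack both, and their absence here does not show that these genes have no such sites. A match is a description of letters and not a binding site, and no binding was measured here.

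Libraries held from 7605328 to 11505983 counts. Levels are normalised CPM, counts scaled to a common library size (CPM) over library sizes scaled by trimmed mean of M-values (TMM), and are given for the first and then the second library of a group. Irak4, the targeted gene, stood at 37.9 and 37.6 CPM in wild-type cells, 20.4 and 21.8 in KO cells, and 492 and 211 in rescue cells. The 2 rescue libraries therefore differed most in Irak4. Over all genes tested, the SD of the log2 difference between the 2 libraries of a group was 0.37 in the rescue, 0.29 in the KO and 0.26 in wild type. The keratin genes Krt8, Krt18 and Krt19 were abundant in every library, while the epithelial marker Epcam reached at most 0.12 CPM. The summed level of 8 epithelial and ductal markers was 6677 to 6990 CPM in wild-type cells, 3845 to 3942 in KO cells, and 4727 to 5597 in rescue cells. Krt8, Krt18 and Krt19 make up most of this sum, which moved with the EGF family levels below, and its part in them was not tested. Cdh1 and Muc1 of the same list fell in the KO and were lower again in the rescue against the KO (log2 fold changes of -0.78 and -0.67, edgeR adjusted p = 0.011 and 0.037). Of 6 leukocyte markers 0 reached 1 CPM, with Cd3e, Adgre1 and Lyz2 among those at 0, and the summed level was at most 0.33 CPM. Acinar, endothelial and fibroblast marker lists summed to at most 2.06, 38.04 and 3.33 CPM. The endothelial sum was 4.63 to 5.28 CPM in wild-type cells, 16.0 to 30.6 in KO cells, and 14.8 to 38.04 in rescue cells, and its part was not tested. Its members went both ways in the KO, with Cdh5 at 2.97 and 3.62 CPM in wild type and 15.9 and 30.5 in the KO, and Kdr at 1.54 and 1.66 against 0.084 and 0.11. In bulk RNA, fewer cells of a kind and less RNA per cell cannot be told apart.

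The KO had less mRNA for most of the family. Of the 9 tested members 7 fell (Hbegf, Areg, Tgfa, Btc, Ereg, Egfr and Errfi1), 0 rose, and Erbb2 and Erbb3 did not pass (edgeR's quasi-likelihood test with Benjamini-Hochberg adjusted p under 0.05 over 12339 genes). Among all genes tested 46.8% were called in this comparison, 23.5% lower and 23.2% higher. The median log2 fold change was -1.18 over the 9 members and 0.01 over all genes tested. At an unadjusted p under 0.05, 8 members were lower and 1 higher, and DESeq2 called 7 lower and 0 higher.

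In the rescue against the KO 6 members rose (Hbegf, Areg, Tgfa, Btc, Egfr and Errfi1) and 0 fell by edgeR, where 14.2% of all genes were called, 8.35% higher and 5.88% lower. The median was 0.53 over the members. Unadjusted, 7 were higher and 0 lower, and DESeq2 called 5 and 0. This count rests on single libraries, since 3 members were called without the first KO library, 2 without the second KO library and 3 without the second rescue library.

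In the rescue against wild type 5 members were lower (Areg, Tgfa, Btc, Ereg and Egfr) and 0 higher by edgeR, beside 22.2% of all genes called, 12% lower and 10.2% higher. The median was -0.46 over the members. Unadjusted, 6 were lower and 0 higher, and DESeq2 called 3 and 0. The count of 5 was 2 without either wild-type library. The 3 comparisons share libraries and are not independent.

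**Figure D1:**
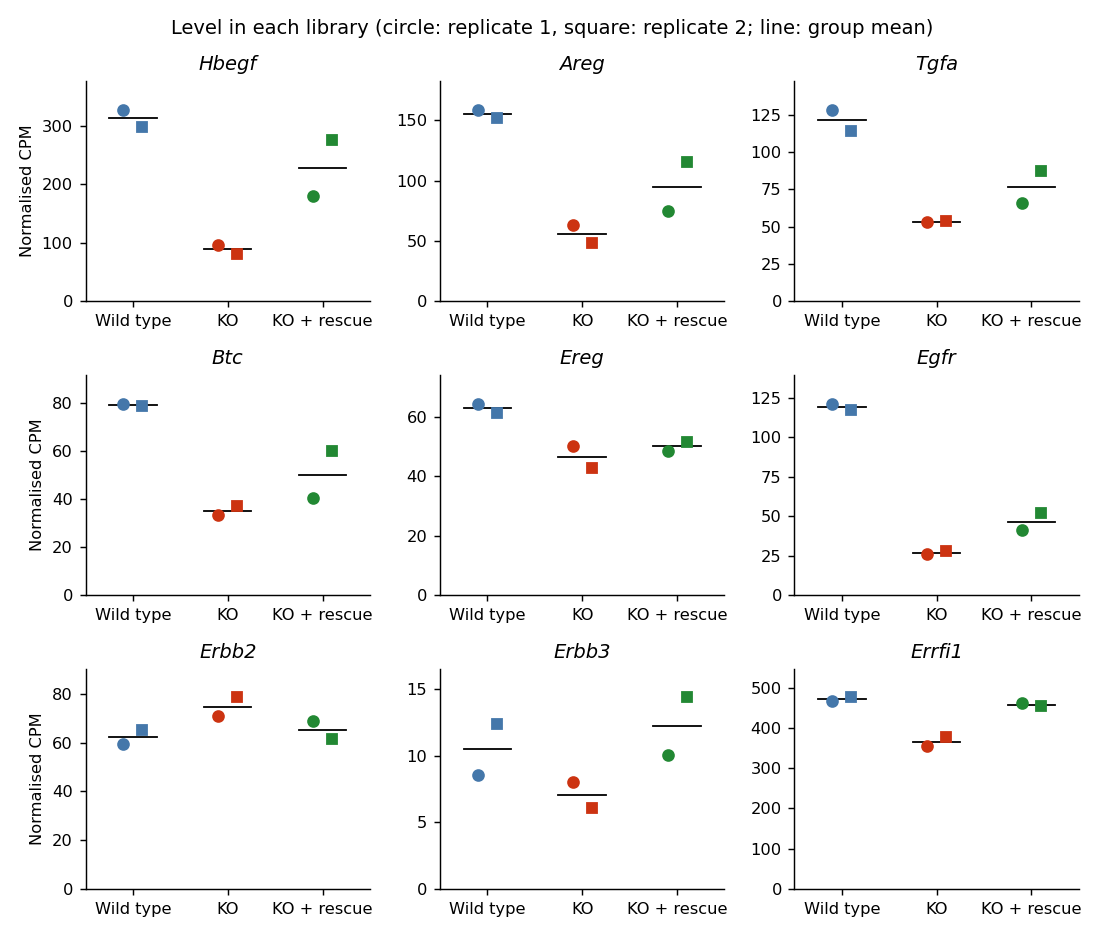
Normalised CPM of the 9 tested genes in each library, on axes that start at 0. Circles are the first and squares the second library of a group, and lines are group means. Hbegf ran from 298 to 328 CPM in wild type and from 81.5 to 95.8 in the KO, and the second rescue library, at 275, was nearer to wild type than the first, at 180.5.

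Hbegf (ENSMUSG00000024486) encodes heparin-binding EGF-like growth factor, a ligand of EGFR and ERBB4. It had 328 and 298 CPM in wild-type cells, 95.8 and 81.5 in KO cells, and 180.5 and 275 in rescue cells. The 3 groups did not overlap, and each rescue library lay between the KO and wild type. Hbegf fell 3.52-fold in the KO (log2 fold change -1.82, SE 0.16, adjusted p = 9.6e-06) and was 2.56-fold higher in the rescue than in the KO (1.36, SE 0.16, adjusted p = 0.0014). The rescue against wild type gave -0.46 (SE 0.16, adjusted p = 0.056). That value was -0.79 and passed (adjusted p = 8.5e-06) without the second rescue library, and -0.19 without the first.

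Areg (ENSMUSG00000029378, GRCm38 chromosome 5, 91139615 to 91148432, plus strand) encodes amphiregulin, an EGFR ligand of low affinity, and its upstream window is the first shown above. Its levels were 159 and 152 CPM in wild-type cells, 63.1 and 48.6 in KO cells, and 74.6 and 115 in rescue cells. Again no group overlapped another, and the second rescue library was the nearer to wild type. Areg fell 2.77-fold in the KO (log2 fold change -1.47, SE 0.17, adjusted p = 5.4e-05). The rescue was 1.69-fold above the KO (0.76, SE 0.17, adjusted p = 0.017) and below wild type (-0.71, SE 0.17, adjusted p = 0.011). Without the second rescue library the gain over the KO was 0.41 and did not pass (adjusted p = 0.063), nor did it without the second KO library (0.58, adjusted p = 0.15) or with DESeq2 (adjusted p = 0.076). The difference from wild type was lost with DESeq2 (adjusted p = 0.082) and without the first or the second wild-type library (adjusted p = 0.089 and 0.060).

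Tgfa (ENSMUSG00000029999, chromosome 6, 86195251 to 86275449, plus strand) encodes transforming growth factor alpha, the EGFR ligand linked most closely to autocrine growth of carcinoma cells. It stood at 128 and 114 CPM in wild-type cells, 52.8 and 53.6 in KO cells, and 65.8 and 87.5 in rescue cells. Every library of a group lay apart from those of the other groups. Tgfa fell 2.27-fold in the KO (log2 fold change -1.18, SE 0.12, adjusted p = 2.6e-05) and was 0.53 higher in the rescue than in the KO (SE 0.13, adjusted p = 0.020). Against wild type the rescue was at -0.66 (SE 0.12, adjusted p = 0.0028). The value against the KO was 0.31 without the second rescue library (adjusted p = 0.13), and it did not pass without either KO library (adjusted p = 0.11 and 0.12).

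Btc (ENSMUSG00000082361, chromosome 5, 91357261 to 91402994, minus strand) encodes betacellulin, which binds EGFR and ERBB4. Its levels were 79.7 and 78.6 CPM in wild-type cells, 33.2 and 37.0 in KO cells, and 40.2 and 60.1 in rescue cells. The first rescue library was closer to the KO and the second closer to wild type, with no overlap between groups. Btc fell 2.26-fold in the KO (log2 fold change -1.18, SE 0.15, adjusted p = 8.9e-05), and the rescue remained lower than wild type (-0.66, SE 0.15, adjusted p = 0.0081), a call lost without the first or the second wild-type library (adjusted p = 0.067 and 0.056). The gain over the KO was at the threshold (0.52, SE 0.15, adjusted p = 0.047) and passed in 5 of 12 alternative analyses. It was 0.20 without the second rescue library (adjusted p = 0.41).

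Ereg and Epgn are the remaining ligand genes. Ereg (ENSMUSG00000029377, chromosome 5, 91074617 to 91093649, plus strand) encodes epiregulin, a broad ligand of low affinity. It stood at 64.6 and 61.5 CPM in wild-type cells, 50.1 and 43.0 in KO cells, and 48.6 and 51.7 in rescue cells. The wild-type libraries were the highest, while those of the KO and the rescue overlapped. Ereg fell 1.35-fold in the KO (log2 fold change -0.43, SE 0.10, adjusted p = 0.0042), a call that was lost without the second KO library (-0.33, adjusted p = 0.053). The rescue differed from the KO by 0.10 (SE 0.10, adjusted p = 0.55) and from wild type by -0.33 (SE 0.10, adjusted p = 0.038), the latter called in 6 of 12 alternative analyses. Epgn (ENSMUSG00000035020, chromosome 5, 91027464 to 91035215, plus strand), the epigen gene, had 1 count in wild-type cells, 2 in KO cells, and 1 in rescue cells over both libraries of a group. It was at or under the floor of 3 counts per group, or 0.15, 0.15 and 0.19 CPM in the same order, and no fold is given.

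Egfr, the receptor for these ligands, had the largest drop of the 9 tested members. Egfr (ENSMUSG00000020122, chromosome 11, 16752203 to 16918158, plus strand) was at 121 and 117 CPM in wild-type cells, 26.0 and 27.9 in KO cells, and 41.1 and 52.1 in rescue cells. Both rescue libraries stood above the KO and below wild type, without overlap. Egfr fell 4.44-fold in the KO (log2 fold change -2.15, SE 0.11, adjusted p = 2.9e-07), and 2.46% of all genes tested had a value as low. It rose 1.73-fold in the rescue (0.79, SE 0.12, adjusted p = 0.0031), where it remained 2.56-fold below wild type (-1.36, SE 0.11, adjusted p = 6.8e-06). Each of these 3 calls held in 12 of 12 alternative analyses.

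Erbb2 and Erbb3 were not called in any of the 3 comparisons. Erbb2 (ENSMUSG00000062312, chromosome 11, 98412470 to 98437716, plus strand), the partner receptor without a ligand, had 59.5 and 65.4 CPM in wild-type cells, 70.9 and 78.6 in KO cells, and 68.9 and 61.5 in rescue cells. Both KO libraries were the highest, by a log2 fold change of 0.26 over wild type (SE 0.10, adjusted p = 0.051), which passed in 4 of 12 alternative analyses. The rescue was at -0.19 against the KO (SE 0.10, adjusted p = 0.21) and at 0.06 against wild type (SE 0.10, adjusted p = 0.71). An exon of Erbb2 overlaps Mien1 on the opposite strand, and reads within the overlap cannot be told apart without a stated strand setting. Mien1 itself had 12.6 to 17.3 CPM over the 6 libraries and a log2 fold change of 0.27 in the KO (adjusted p = 0.15). Exons of Ereg and Tgfa likewise overlap the opposite-strand genes Gm19610 and Gm43917, which have no value here.

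Erbb3 (ENSMUSG00000018166, chromosome 10, 128567523 to 128589652, minus strand), the neuregulin receptor, was low throughout. It had 8.55 and 12.4 CPM in wild-type cells, 8.02 and 6.07 in KO cells, and 10.0 and 14.4 in rescue cells. The wild-type and rescue libraries overlapped, and the KO libraries lay narrowly below both. The log2 fold change was -0.57 in the KO (SE 0.24, adjusted p = 0.076), 0.77 in the rescue against the KO (SE 0.24, adjusted p = 0.057) and 0.20 in the rescue against wild type (SE 0.23, adjusted p = 0.59). With 53 to 127 counts per library, a difference of this size was not resolved. The first of these passed in 5 and the second in 2 of 12 alternative analyses.

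Errfi1 (ENSMUSG00000028967, chromosome 4, 150853919 to 150868892, plus strand), whose product restrains EGFR and whose transcription is known to rise with EGFR signalling, was among the most abundant transcripts of the set. Its levels were 466 and 476 CPM in wild-type cells, 355 and 376 in KO cells, and 462 and 453 in rescue cells. The KO libraries were the lowest, and the rescue libraries lay just under those of wild type. Errfi1 fell 1.29-fold in the KO (log2 fold change -0.36, SE 0.08, adjusted p = 0.0030) and rose 1.25-fold in the rescue over the KO (0.32, SE 0.08, adjusted p = 0.022). The second call held in 6 of 12 alternative analyses, and its value stayed between 0.29 and 0.36 when any 1 library was left out. The rescue differed from wild type by -0.04 (SE 0.08, adjusted p = 0.76).

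**Figure D2:**
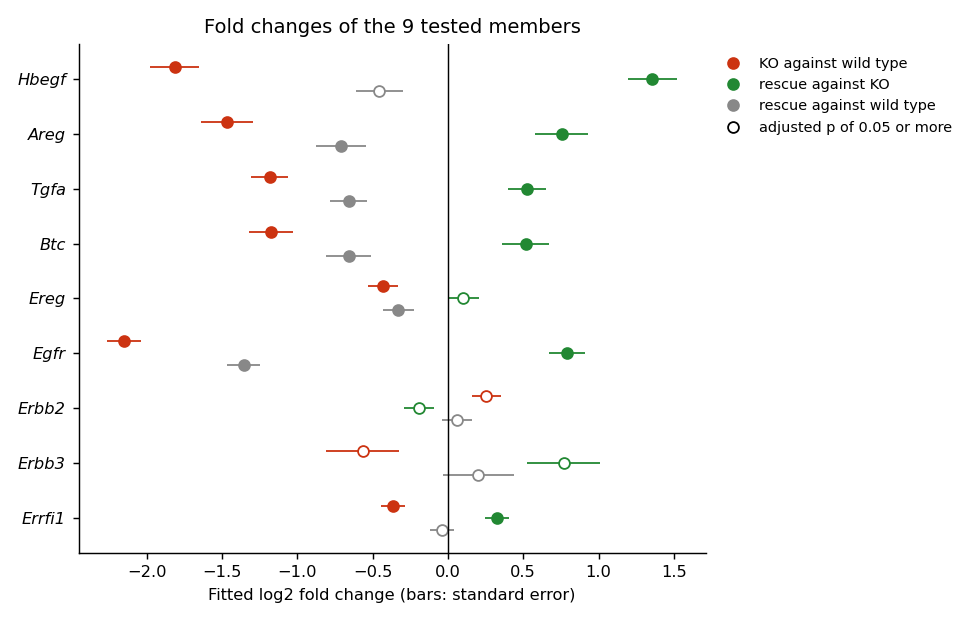
Fitted log2 fold changes of the 9 tested genes in the 3 comparisons, with bars for the standard error and open points where the adjusted p was 0.05 or more. Egfr at -2.15 and Hbegf at -1.82 lie farthest to the left for the KO against wild type, and Hbegf at 1.36 farthest to the right for the rescue against the KO.

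Ratios of counts within a library do not depend on how libraries are scaled. Egfr had 2.04 and 1.80 counts for each Erbb2 count in wild-type cells, 0.37 and 0.35 in KO cells, and 0.60 and 0.85 in rescue cells. Per base of gene length, Egfr made up 45.5% and 41.5% of the reads of the 3 receptor genes in wild type and 13.3% and 13.2% in the KO, while Erbb2 went from 48.5% and 50.2% to 78.9% and 81.3%. In the rescue the Egfr share was 19.6% and 24.5%. For the chromosome 5 neighbours Areg and Ereg the ratio was 2.46 and 2.47 in wild-type cells, 1.26 and 1.13 in KO cells, and 1.54 and 2.23 in rescue cells. No ratio of the 3 groups overlapped for either pair. The ratios are given as a description and were not tested.

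**Figure D3:**
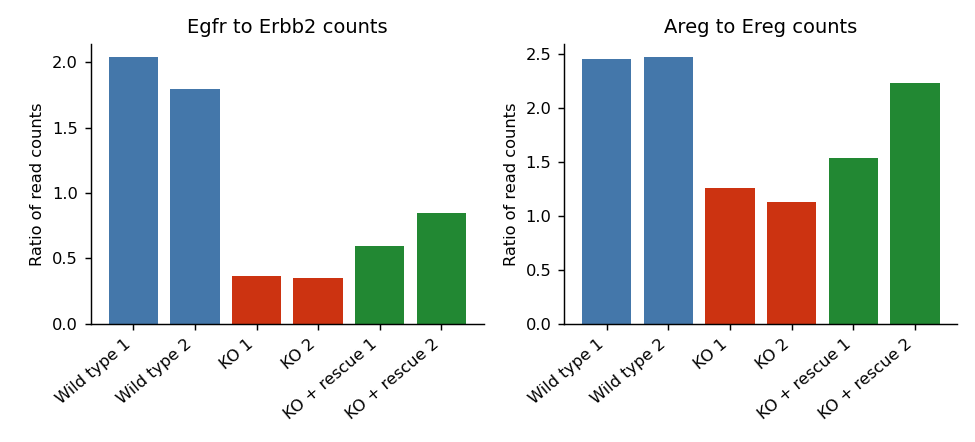
Ratio of read counts in each library for Egfr to Erbb2 (left) and Areg to Ereg (right), as bars from 0. The Egfr to Erbb2 ratio was above 1 in the wild-type libraries, at 2.04 and 1.80, and below 1 in the 4 KO and rescue libraries.

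Levels of different genes were compared as normalised CPM divided by the gene length in kilobases that the files list. The order depends on that length, 11326 bases for Egfr and 5210 for Erbb2, and the transcripts in use were not determined. Before the division Egfr was above Erbb2 in wild type, at a mean of 119 against 62.4 CPM. The receptor and ligand shares per base carry the same limit. In wild type Hbegf (132 ± 8.76, SD, n = 2), Errfi1 (131 ± 1.87) and Areg (129.6 ± 3.89) were highest and overlapped. Tgfa (28.6 ± 2.39) and Btc (27.5 ± 0.27) came next and overlapped each other, and Ereg (15.2 ± 0.54), Erbb2 (12.0 ± 0.80), Egfr (10.5 ± 0.24) and Erbb3 (1.74 ± 0.45) followed without overlap. In the KO Errfi1 (102 ± 4.13) stood alone at the top, followed by Areg (46.6 ± 8.56) and then Hbegf (37.3 ± 4.26), whose libraries did not overlap there. Erbb2 (14.3 ± 1.05) was above Tgfa (12.6 ± 0.14), Btc (12.2 ± 0.94) and Ereg (11.3 ± 1.23) in the KO, of which Tgfa overlapped Btc and Btc overlapped Ereg. Egfr was at 2.38 ± 0.12 there. In the rescue Hbegf (96.0 ± 28.3) and Areg (79.2 ± 24.0) overlapped again, below Errfi1 (127.8 ± 1.71).

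Summed over the 6 ligand genes, the level per kilobase was 344 and 322 in wild-type cells, 129 and 111 in KO cells, and 179.6 and 266 in rescue cells. Hbegf and Areg together supplied most of it in every library. The Hbegf share was 40.1% and 39.1% in wild-type cells, 31.2% and 31.0% in KO cells, and 42.3% and 43.6% in rescue cells. Ereg held 4.54% and 4.62% in wild type, 9.38% in both KO libraries, and 6.54% and 4.69% in the rescue. The KO libraries thus had the lowest share of Hbegf and the highest share of Ereg.

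**Figure D4:**
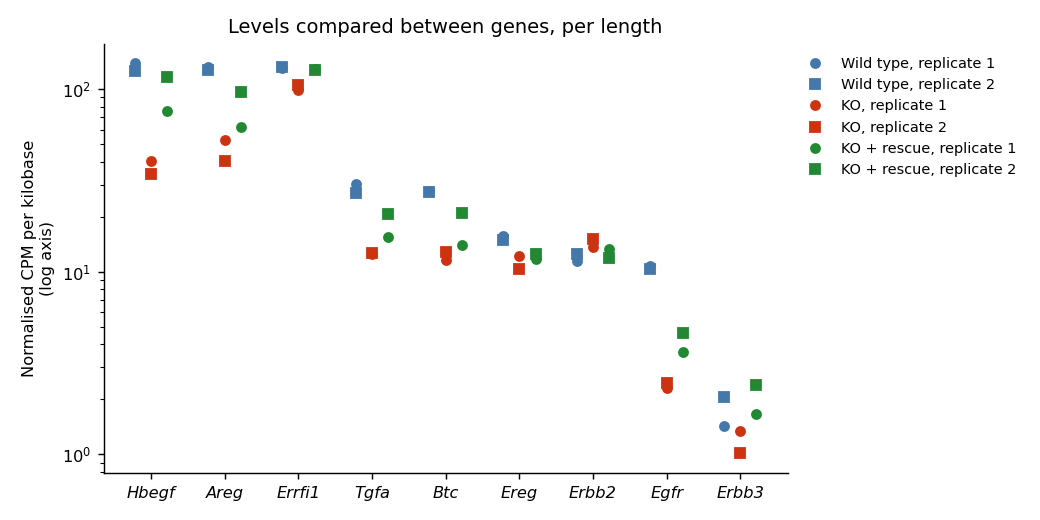
Normalised CPM per kilobase for the 9 tested genes on a log axis, with 1 point per library. The ligand genes Hbegf and Areg and the inhibitor gene Errfi1 sit near 130 in wild type, and Egfr drops from 10.5 in wild type to 2.38 in the KO, below Erbb2 at 14.3.

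The rescue libraries differed from each other over the family. As a percentage of the wild-type mean, Hbegf was at 57.7% in the first and 88.0% in the second rescue library, Areg at 48.0% and 74.2%, and Btc at 50.8% and 75.9%. Tgfa was at 54.4% and 72.3% and Egfr at 34.4% and 43.6%. The library with less Irak4 mRNA, at 211 CPM against 492, therefore had more of these 5 transcripts. With 2 libraries no relation to the Irak4 level can be tested. Errfi1, at 98.2% and 96.3%, and Ereg, at 77.1% and 82.0%, differed least between them.

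The other family genes were scarce apart from Nrg1. Nrg1, a ligand of ERBB3 and ERBB4, was at 14.5 and 17.2 CPM in wild-type cells, 5.43 and 4.24 in KO cells, and 8.12 and 6.79 in rescue cells. It fell in the KO (log2 fold change -1.69, SE 0.19, adjusted p = 4.8e-05) and was lower in the rescue than in wild type (-1.09, adjusted p = 0.0020), with 0.61 in the rescue against the KO (adjusted p = 0.089). Of the 4 tested genes of this list (Egf, Nrg1, Nrg2 and Nrg4) 2 fell in the KO, beside 23.5% of all genes called lower. The other was Nrg2, at under 4 CPM and with 8 counts in each KO library. Nrg4, at 3.96 ± 0.06 CPM in wild type and 5.14 ± 0.18 in the KO, fell in the rescue against the KO to 2.79 ± 0.36 (SD, n = 2, edgeR adjusted p = 0.042), a call lost with DESeq2, with the replicate block, with only the groups compared and in 5 of 6 refits that left out 1 library. Erbb4 and Nrg3 had 0 counts in all 6 libraries, which allows up to 0.15 CPM in either of the first 2 groups and 0.19 CPM in rescue cells. Egf itself did not exceed 1.39 CPM.

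Of 11 tested genes that release the ligands 3 fell and 1 rose in the KO, the falls at a share near the 23.5% of all genes called lower (23.2% were called higher), and the list median was -0.09 against 0.01 for all genes tested. Adam9, a protease reported to cut proHB-EGF, fell from 585 ± 16.2 to 330.4 ± 21.7 CPM, and Rhbdf2, which encodes an iRhom that carries ADAM17 to the cell surface, fell from 79.7 ± 2.70 to 47.5 ± 1.28 (SD, n = 2). Cd9, a tetraspanin that binds proHB-EGF, fell from 464 ± 22.9 to 314 ± 13.5 CPM, while Adam12 rose from 21.6 ± 0.23 to 33.6 ± 3.26. Adam17 itself had a log2 fold change of -0.09 (SE 0.09, adjusted p = 0.42) and Adam10 of -0.06 (SE 0.09, adjusted p = 0.58). In the rescue against the KO 1 of the 11 rose, Timp3, an inhibitor of ADAM17, from 71.2 ± 8.98 to 123 ± 34.3 CPM, and 0 fell by edgeR (3 higher and 1 lower unadjusted, 1 and 0 by DESeq2), a call lost without the second KO library. In the rescue against the KO 8.35% of all genes were called higher and 5.88% lower. Against wild type 5 were lower in the rescue, Cd9, Adam9 and Rhbdf2 among them, and 2 higher, Timp3 and Adam12. The shares of all genes called there were 12% lower and 10.2% higher. DESeq2 called 4 lower and 1 higher in the rescue against wild type, with Adam12 lost. Leaving out either wild-type library left 2 called lower, Adam9 and Cd9, and lost the Adam12 call, and Timp3 was lost without the second.

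Of 18 tested adaptor and effector genes 5 fell and 3 rose in the KO, with a median of -0.07, near the shares of all genes called (23.5% lower and 23.2% higher). The scaffold gene Gab2 fell from 51.3 ± 4.85 to 30.2 ± 4.12 CPM and Pik3cb, which encodes a PI3K catalytic subunit, from 102.5 ± 1.43 to 73.2 ± 5.46. Eps8, an EGFR substrate that acts on actin, rose from 158 ± 1.93 to 253 ± 2.30 CPM, and the PI3K regulatory gene Pik3r3 from 3.06 ± 0.64 to 10.2 ± 0.42. In the rescue against the KO Gab2 (46.5 ± 12.4) and Pik3cb (109.6 ± 7.56) rose, beside rises in 8.35% of all genes. Pik3r3 (5.09 ± 2.67) and Pik3r1 (to 34.2 and 31.2 from 44.8 and 41.3 CPM) fell, beside falls in 5.88%. Both falls were lost with DESeq2, with the replicate block, with only the groups compared and in 5 of 6 refits that left out 1 library, and the Gab2 call was lost in the last 2 of these settings as well. Against wild type 1 gene was higher in the rescue, Eps8, and 1 lower, Grb2, where the all-gene shares were 10.2% and 12%. The Grb2 call was lost with DESeq2 and on leaving out the first library of either wild type or the rescue.

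Among genes of receptor turnover and restraint, 6 of 19 tested fell and 0 rose in the KO by edgeR, with a median of -0.13, beside 23.5% of all genes called lower. Unadjusted, 8 were lower and 0 higher, and DESeq2 called 5 and 0, while scaling without TMM called 4 lower and 2 higher (Socs5 and Stub1). Sh3kbp1, the CBL-binding endocytic adaptor, fell from 351 ± 29.2 to 169 ± 17.5 CPM, and the ubiquitin ligase gene Cblb from 60.7 ± 7.97 to 31.7 ± 1.63. Lrig1, whose product promotes breakdown of ERBB receptors, fell from 170.0 ± 4.09 to 93.9 ± 12.0 CPM, and the sorting gene Stam from 125 ± 2.02 to 79.7 ± 5.65. In the rescue against the KO 4 rose and 0 fell (unadjusted and by DESeq2 also 4 and 0): Sh3kbp1 to 244 ± 57.8, Cblb to 46.1 ± 7.11, Lrig1 to 131 ± 13.8 and Stam to 109 ± 10.5 CPM. Of all genes 8.35% were called higher there, and the 4 became 2 when KO library 1 was left out, and 0 when KO library 2 or rescue library 2 was. Sh3kbp1, Cblb and Lrig1 were lower in the rescue than in wild type, and 0 genes of the list were without either wild-type library. Of all genes 12% were called lower in the rescue against wild type. Cbl itself was at 80.6 and 85.4 CPM in wild type and 77.8 and 76.4 in the KO, with a log2 fold change of -0.11 (SE 0.09, adjusted p = 0.35).

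Of 8 genes that feed back on ERK signalling, the main route below these receptors, 7 fell in the KO (among them Dusp5, Spry2, Spred2 and Dusp4) and 3 rose in the rescue against the KO (Dusp5, Dusp6 and Spry2). In the rescue 4 were lower than in wild type (Spry1, Spred1, Spry4 and Dusp4). The 7 became 6, with Spry4 lost, with DESeq2, without TMM and with the replicate block, and 8 with only the groups compared. Leaving out any wild-type or KO library lost the Spry4 call, and leaving out the first library of either group lost the Spry1 call as well. Dusp6 was gained without the first KO library or either rescue library. DESeq2 called 3 higher in the rescue against the KO, and 2 lower in the rescue than in wild type (Spred1 and Spry1). The 3 became 2 on leaving out KO library 1, and 1 on leaving out KO library 2 or rescue library 2, and the 4 became 1 and 2 without the first and second wild-type libraries. Dusp5, an ERK phosphatase gene, had 112 and 115 CPM in wild-type cells, 38.7 and 36.7 in KO cells, and 68.9 and 105 in rescue cells, again with the second rescue library nearer to wild type. Over all 5 lists, 23 of 60 tested genes fell and 4 rose in the KO, 10 rose and 3 fell in the rescue against the KO, and 3 were higher and 15 lower in the rescue than in wild type. Of all genes 23.5% and 23.2% were called lower and higher in the KO, 8.35% and 5.88% higher and lower in the rescue against the KO, and 10.2% and 12% higher and lower in the rescue against wild type. Leaving out KO library 1, KO library 2 or rescue library 2 gave 6, 1 and 3 in place of the 10. Leaving out wild-type library 1 or 2 gave 5 and 7 in place of the 15.

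**Figure D5:**
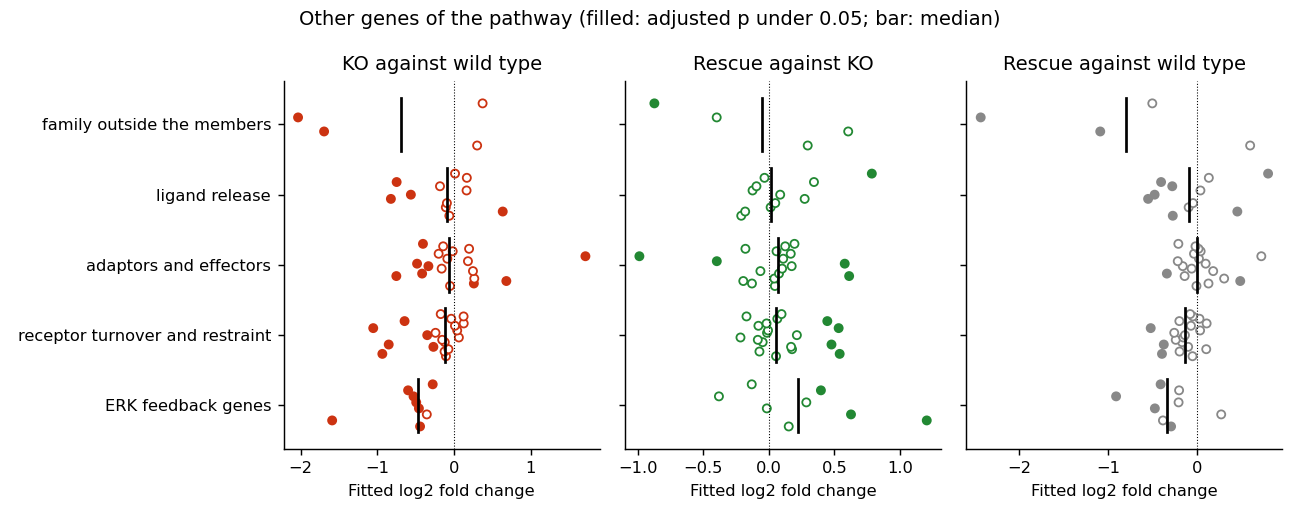
Fitted log2 fold changes of the 60 tested pathway genes by list, filled where the adjusted p was under 0.05, with a bar at each list's median. For the KO against wild type the ERK feedback genes lie at or below -0.28 with a median of -0.48, and the adaptor genes lie on both sides of 0 with a median of -0.07.

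Epgn, Ereg, Areg and Btc lie in this order within 375.5 kb of chromosome 5, so genes whose start lay within 500 kb of that span were read as well. There were 17, of which 7 passed the filter. Upstream of Epgn lies a group of chemokine genes, and in the KO Cxcl1 went from 155.9 and 183 CPM to 44.0 and 39.1 (log2 fold change -2.02, SE 0.13) and Cxcl5 from 23.3 and 24.8 to 2.59 and 2.86 (-3.14, SE 0.25). In the rescue Cxcl1 was lower still, at 24.0 and 32.6 CPM (-0.56 against the KO, SE 0.15, adjusted p = 0.028), where Areg and Btc were higher. Cxcl5 was also lower there, at 0.63 and 0 CPM (-3.01, SE 0.58, adjusted p = 0.0088). The chemokine genes Ppbp and Cxcl3, at no more than 2.83 CPM in any library, gave -3.37 (SE 0.58) and -4.76 (SE 0.81) in the KO. Rassf6 gave 0.07 in the KO (SE 0.16, adjusted p = 0.75) and -0.54 in the rescue against the KO (SE 0.17, adjusted p = 0.059). Mthfd2l, between the chemokines and Epgn, gave -0.23 in the KO (SE 0.20, adjusted p = 0.36) and -0.05 in the rescue against the KO (SE 0.21, adjusted p = 0.90). Parm1, beyond Btc, gave -0.03 in the KO (SE 0.15, adjusted p = 0.90) and fell in the rescue against the KO (-0.80, SE 0.16, adjusted p = 0.011). Ereg, whose start lies 65.0 kb from that of Areg, is given above.

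Likeness to other genes was read as Pearson's r of log2 CPM over the 6 libraries among 10252 genes of at least 5 mean CPM, as a description. The 3 groups set most of such a correlation, and the libraries share depth and scaling. Outside the members, Lmo4 and Igfbp4 were most like Egfr (r = 1.000 for both at 3 digits). Igfbp4, which encodes a binding protein of insulin-like growth factors, had 1344 and 1320 CPM in wild-type cells, 407 and 449 in KO cells, and 596 and 707 in rescue cells. Nabp1 and Plod2 were most like Hbegf, Itga5 and Rap1gap2 most like Areg, Dclk1 and Pwwp2b most like Tgfa, and Arrdc1 and Tmbim1 most like Btc. Itga5, an integrin subunit gene, had 248 and 244 CPM in wild-type cells, 123 and 103 in KO cells, and 140 and 195 in rescue cells. For Ereg they were Trabd and Slc9a3r2, for Erbb3 Ccdc82 and Rack1, and for Errfi1 Tbc1d12 and Git2. For Erbb2 the nearest was Sirt2 (r = 0.997), with 74.2 and 78.2 CPM in wild-type cells, 81.3 and 86.0 in KO cells, and 80.3 and 76.4 in rescue cells.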

How the data were processed

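Per the submitters' processing notes, the tools named are bcl2fastq, STAR 2.0.4b, Subread and featureCounts 1.45, with genome build GRCm38. Which strand setting and which gene models were used is not given in the sources here. Per the labels' protocols, Trizol RNA was enriched for mRNA by oligo-dT. Per the file headers, each deposited file lists 41388 genes with raw counts beside CPM and RPKM. The CPM deposited by the authors was the count over the file's total, and the RPKM deposited by the authors was the CPM over the listed length in kilobases, and both served only as checks. Symbols came from GENCODE M21 for 40254 identifiers.

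Groups came from the sample titles. Genes were kept by filterByExpr (minimum count 10, minimum total 15), which left 12339. Counts were scaled by TMM and tested in edgeR 4.0.16 (R 4.3.3) by quasi-likelihood, with a mean for each group over the 6 libraries, leaving 3 residual degrees of freedom. The scripts were tested on simulated data with few changed genes, up and down, so the scaling under many changes was not tested. SE is the absolute log2 fold change over the square root of F, and normalised CPM per kilobase divides normalised CPM by the listed length. Totals of 7605328 to 11505983 counts limit the precision of genes with few reads, and floors of 3 counts per group cover counting error only. Promoter bases came from RefSeq (GRCm38.p6), without the 50 bases after the start.

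The members, pathway lists, markers and motifs were chosen with earlier results of these data known. All 10 members are described. From each list the text names up to 4 called genes of at least 5 mean CPM with the smallest adjusted p, and, for the 2 genes most alike, those with the highest r. Named outside that rule after their values were seen were Adam10, Adam17, Cbl, Socs5, Stub1, Erbb4, Nrg2, Nrg3, Nrg4, Egf and Mien1. The alternatives were DESeq2 1.42.0, scaling by library size alone, no filter, a stricter filter (1 CPM in 2 libraries, mean of 20 counts), only the groups compared, a replicate block and leaving out each library. A block with crossed rescue numbers was added after seeing the data.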

Additional observations from a re-analysis of the deposited data

How the results depend on the processing

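Of 324 refits of single members (27 fold changes under 12 alternatives), 280 kept their side of the threshold, 31 lost a call, 13 gained a call, and no called value changed sign. The 7 falls in the KO held throughout, apart from Ereg without the second KO library. With DESeq2, 3 members were called lower in the rescue than in wild type in place of 5, and 0 pathway genes were called lower in the rescue than in the KO in place of 3. The latter count was also 0 with only the groups compared and with the replicate block. Scaling by library size alone, which moved the median log2 fold change of all genes in the KO from 0.01 to 0.14, called 1 member higher in the KO (Erbb2, 0.38) and 10 pathway genes in place of 4. Under it 64.2% of all calls in the KO were higher, against 49.7%, 41.4% in the rescue against the KO, against 58.7%, and 58.2% in the rescue against wild type, against 46.0%. Of the called members and pathway genes, 0 changed sign under it or DESeq2. Over all genes, calls higher and lower in the rescue against the KO were 1030 and 726, but 796 and 378 with DESeq2, 837 and 1185 without TMM, 667 and 377 with only the groups compared, and 139 and 64 without the second KO library. In the rescue against wild type they were 1263 and 1481, but 751 and 1086 with DESeq2 and 417 and 691 without the first wild-type library. In the KO they were 2867 and 2905, but 1688 and 2005 without that library. With only the groups compared, 1 member was called higher in the KO, again Erbb2.

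With 1 library left out at a time, where a lone library is assumed to vary like the others, members called higher in the KO numbered 0 to 1, members called higher in the rescue against the KO 2 to 7 and members called lower in the rescue against wild type 2 to 6. Pathway genes numbered 1 to 15 higher and 0 to 6 lower in the rescue against the KO, and 1 to 4 higher and 5 to 19 lower in the rescue against wild type. Same-numbered libraries of 2 groups did not deviate together (r of 0.04, -0.19 and -0.15 over genes), so the number was not taken as a pairing. Crossing the rescue numbers in the block, chosen after seeing the data, called 1425 genes higher and 1135 lower in the rescue against the KO, 1535 and 1779 in the rescue against wild type, and 1 member higher in the KO. The uncrossed replicate block called 765 and 429 genes in the rescue against the KO, against 1030 and 726 without it. With the replicate block, Errfi1 in the rescue against the KO (adjusted p = 0.053) and Ereg in the rescue against wild type (adjusted p = 0.064) lost their calls, and all other member calls were kept.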
